A study of Cavia porcellus with 30 samples.

Results

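Some transcripts were clearly present in the livers of some control guinea pigs and close to nothing in the livers of others given the same saline. The transcripts described here are the 100 of 25824 listed that behaved in this way. They were chosen by their TPM (a transcript's level relative to all transcripts of its library, per unit of length) in the 10 vehicle livers of both times. A transcript was off in a liver when it was under 0.1 TPM and on when it was at 3 TPM or more, and a member had to be off in at least 2 vehicle livers and on in at least 2. The split among vehicle livers is therefore what the choice used. It is given as a description, and results are read only from comparisons between groups of treated livers, whose values the choice did not use.

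The animals were Hartley guinea pigs that had received saline vehicle (3 ml/kg), a low dose of thioacetamide (25 mg/kg) or a high dose (100 mg/kg). RNA came from livers collected after 33 h or 9 h, so that there were 6 groups with 5 animals in each and 1 library per animal. Thioacetamide is oxidised in liver cells to reactive products and is used in animals to bring about liver injury, and the doses were meant to give different degrees of it. Library totals ran from 21352824 to 33842322 estimated counts. The counts in a library are relative, so fewer cells with a transcript and less of it per cell cannot be told apart. The tables pair the identifiers with no gene names and the gene table used here matched 0 of them, so members are given by transcript identifier and liver marker genes were not checked.

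As background, 1 gene can give rise to several transcripts, through different start sites, splicing or ends, and near-identical genes can give rise to near-identical transcripts. Sequenced fragments that match more than 1 of them are divided between them by a likelihood estimate. That estimate can give nearly all of the shared fragments to one transcript in one library and to its relative in another, so shared reads between isoforms can by themselves make a transcript look on in one liver and off in the next. A whole liver holds hepatocytes together with lining, immune and bile duct cells.

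Most members were on in a minority of the vehicle livers. Of the 100 members, 32 were on in 2 vehicle livers, 25 in 3, 22 in 4, 8 in 5, 7 in 6, 4 in 7 and 2 in 8. The off state was spread in the same way, with 33 members off in 2 vehicle livers, 27 in 3, 14 in 4 and the remaining 26 in 5 to 8. For 13 members no vehicle liver lay between the limits, and for 5 no liver of all 30 did. No member split exactly by the time of the vehicle livers: 75 members were on in vehicle livers of both times, 17 in 33 h livers alone and 8 in 9 h livers alone, and 0 were on in all 5 livers of one time and off in all 5 of the other. When only 1 vehicle group was used, 26 members met the rule in the 33 h livers and 30 in the 9 h livers.

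**Figure D1:**
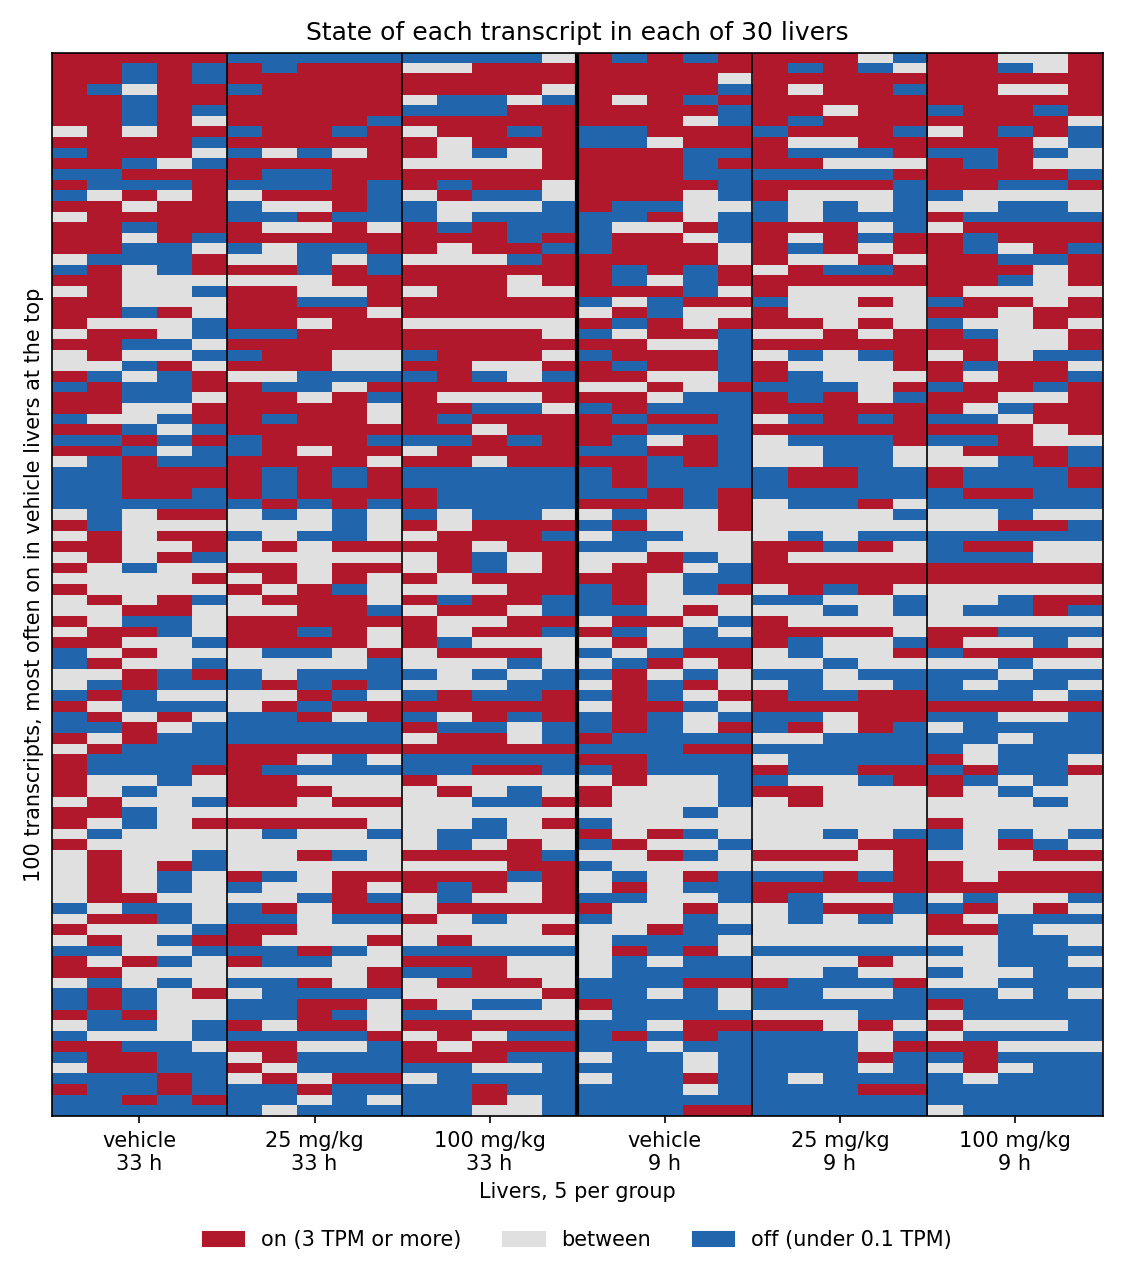
State of the 100 transcripts (rows, ordered by the number of vehicle livers in which they were on) in 30 livers (columns, 5 per group, with 33 h left of 9 h): red for on, blue for off, grey for between. Rows change colour within every group of 5 livers, treated as well as vehicle.

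The on state was low in most members. The median TPM over the vehicle livers in which a member was on ran from 3.13 to 23.4 TPM, with a median of 4.83 TPM over the 100 members. It was under 5 TPM in 53 members and at least 10 TPM in 10. The off state was mostly an estimate of exactly 0: 268 of the 356 off values in vehicle livers (75.3%) were at 0 counts. A count of 0 did not always place a member under the on limit. In 11 members, 3 counts, the floor used here for a count of 0 in a library, would have reached 3 TPM in a vehicle liver where they were off. In 4 members 1 count would have done so in a vehicle liver. In the other 89 members 3 counts stayed under the on limit in every vehicle liver where the member was off. The on state itself rested on few counts in 23 members, whose median estimated count in the vehicle livers where they were on was under 10. These floors cover counting error only.

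The highest on levels belonged to ENSCPOT00000011763.3, ENSCPOT00000000420.3, ENSCPOT00000032276.1, ENSCPOT00000019526.2 and the pair ENSCPOT00000021767.2 and ENSCPOT00000024803.2. ENSCPOT00000011763.3 (777 bases) was on in 6 of 20 treated livers, at 13.0, 5.42 and 139 TPM in 3 high dose livers and 8.92 TPM in 1 low dose liver of 33 h, and at 27.2 TPM in 1 high dose liver and 16.5 TPM in 1 low dose liver of 9 h. In vehicle livers it was at 33.6 and 13.2 TPM in 2 of 33 h and at most 0.513 TPM in the other 8. Each of the 4 treated groups thus held livers in both states.

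ENSCPOT00000019526.2 (420 bases) was on in 11 of the 20 treated livers. In 33 h livers it was at 0.253, 5.81, 27.2, 0 and 17.0 TPM (high dose) and at 0, 18.8, 5.57, 0 and 9.12 TPM (low dose). In 9 h livers it was at 2.26, 20.4, 0, 14.9 and 0 TPM (high dose) and at 2.2e-05, 4.96, 7.80, 32.8 and 0 TPM (low dose). Levels in the groups overlapped throughout.

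Among the members with no vehicle liver between the limits, ENSCPOT00000009221.2 (321 bases) was on in all 5 high dose livers of 33 h, at 8.03 to 34.2 TPM, and in 4 of 5 high dose livers of 9 h, at 11.4 to 30.2 TPM. It was on in 3 of 5 low dose livers of 33 h (46.2, 20.4 and 11.2 TPM) and in 1 of 5 low dose livers of 9 h (34.8 TPM), and was listed at 0 in the other 6 low dose livers. It was on in 6 of 10 vehicle livers, at 3.71 to 14.8 TPM. ENSCPOT00000040781.1 (1849 bases) was on in 1 high dose liver of 33 h, at 18.5 TPM, and at 0 in all 5 high dose livers of 9 h, and in low dose livers it was on in 2 of 5 at 33 h and 1 of 5 at 9 h. The 5 vehicle livers of 33 h were all at 0, and 4 of the 5 vehicle livers of 9 h were on, at 5.31 to 14.9 TPM. ENSCPOT00000041233.1, only 225 bases long, was on at 3.42 to 21.7 TPM in 6 vehicle livers, and in those livers its estimated count was 5.1 to 44.6.

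The states were not particular to the vehicle livers. In the 20 treated livers, 71 of the 100 members again had at least 2 livers on and at least 2 off, compared with 360 of all 25824 listed transcripts (1.39%). Most listed transcripts are too high or too low to do so. Among transcripts with a vehicle mean of 1 to 10 TPM, 69 of 96 members (71.9%) had both states in treated livers, against 106 of 7660 other transcripts (1.38%). Among the 29 members without both states, 19 were off in fewer than 2 treated livers and 11 were on in fewer than 2, with 1 member in both counts. No member was off in all 20 treated livers and 6 were on in none of them. A single member, ENSCPOT00000000057.3 (471 bases), was on in all 20, at 5.17 to 29.9 TPM. It was off in 2 of the 10 vehicle livers, both at 0 TPM and both of 33 h, and was at 6.06 to 10.6 TPM in the other 3 vehicle livers of 33 h and at 2.75 to 21.2 TPM in those of 9 h.

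Within each treated group many members were in both states at once. At least 1 liver on and at least 1 off was found for 43 members in high dose livers and 49 in low dose livers at 33 h, and for 47 in high dose livers and 39 in low dose livers at 9 h. All 5 livers were on for 11 members in high dose livers and 10 in low dose livers at 33 h, and for 6 in high dose livers and 10 in low dose livers at 9 h. All 5 were off for 4 members in high dose livers and 3 in low dose livers at 33 h, and for 4 in high dose livers and 6 in low dose livers at 9 h.

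Treated livers of 33 h had more members on than treated livers of 9 h on the TPM scale, but at the high dose the direction turned on another scale. At the low dose 39 to 49 members were on in the 33 h livers (44.0 ± 3.74, SD, n = 5), against 28 to 42 in the 9 h livers (33.4 ± 5.90, SD, n = 5). At the high dose 39 to 47 were on in the 33 h livers (43.8 ± 3.27, SD, n = 5), against 27 to 44 in the 9 h livers (33.6 ± 7.02, SD, n = 5). Vehicle livers had 26 to 53 members on at 33 h and 24 to 45 at 9 h, so the vehicle livers of 33 h alone spanned the range of the treated livers. Of the values of other transcripts on TPM, 45.2% were on at the high dose at 33 h, against 38.7% at 9 h. At the low dose 42.3% were on at 33 h, against 40.4% at 9 h. On CPM of scaled libraries per kilobase, with the same limits, 36.2% of member values were on in low dose livers of 33 h, against 28.2% at 9 h. On that scale the high dose had 28.8% on at 33 h, against 32.8% at 9 h. In other transcripts the scaled shares were 38.2% at 33 h and 38.5% at 9 h (low dose). At the high dose they were 39.0% and 38.3%. Scaling factors (TMM, which correct for a few abundant transcripts taking up a library) were 1.23 to 1.43 at the high dose, 33 h and 0.858 to 0.934 at the high dose, 9 h. The part of scaling in the difference was not tested beyond these values, and no p is given for a count over members.

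The off state moved less with scale. At the low dose 28.6% of member values were off at 33 h, against 32.8% at 9 h, and at the high dose 26.6% were off at 33 h, against 35.8% at 9 h. On the scaled libraries the shares were 29.0% against 32.8% and 27.6% against 35.8%. In other transcripts 27.4% of values were off in high dose livers of 33 h, against 29.3% at 9 h, on TPM, and at the low dose 29.4% were off at 33 h, against 29.1% at 9 h. On the scaled libraries those shares were 29.7% against 29.4% (high dose) and 30.9% against 29.9% (low dose), so the direction in other transcripts at the high dose turned with the scale. Vehicle livers had 31.6% of member values off at 33 h and 39.6% at 9 h.

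**Figure D2:**
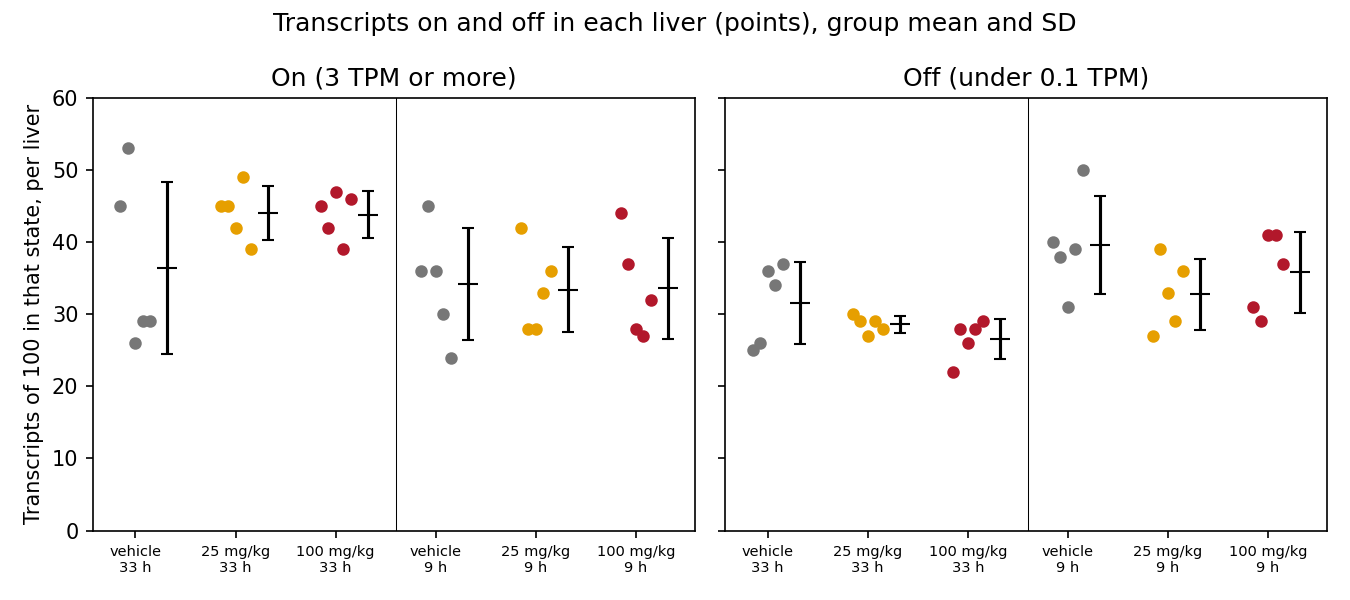
Number of the 100 transcripts on (left) and off (right) in each liver (points), with the group mean and SD beside them, 33 h left of 9 h. On the TPM scale treated livers of 33 h had 39 to 49 members on and treated livers of 9 h 27 to 44, while vehicle livers of 33 h ran from 26 to 53.

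Counted member by member, with no test, some members were on in more high dose than low dose livers and others in fewer. Between high and low dose livers of 33 h, 41 members were on in more high dose livers, 35 in fewer and 24 in as many. At 9 h the counts were 28, 30 and 42. On the scaled libraries the balance turned at both times, with 29 on in more high dose livers and 38 in fewer at 33 h, and 32 against 19 at 9 h. Of other transcripts at 33 h, 9.80% were on in more high dose livers and 3.52% in fewer on TPM, and 6.64% and 5.18% on the scaled libraries. Between 33 h and 9 h, 51 members were on in more 33 h livers at the low dose and 22 in fewer, and at the high dose 52 were on in more and 21 in fewer. On the scaled libraries the low dose gave 48 against 24, and the high dose 32 against 38. In other transcripts the high dose gave 13.8% against 2.45% on TPM and 7.11% against 5.95% on the scaled libraries. The low dose gave 8.08% against 3.84% of other transcripts on TPM and 4.89% against 5.45% on the scaled libraries.

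Dose and time were tested transcript by transcript with edgeR's quasi-likelihood test on the estimated counts of all 30 livers, with p-values adjusted by Benjamini-Hochberg over the 18239 transcripts with enough counts. Of the 100 members 78 passed the filter on low counts and 22 did not. The 78, and the counts of calls, hold ENSCPOT00000021767.2 and ENSCPOT00000024803.2 as 2 members, though their values were equal in every liver. Few members passed the test, and in each of the 4 contrasts of treated livers the share called was lower than over all transcripts tested. High against low dose called 5 of 78 members at 33 h, all lower, where 33.2% of all tested transcripts were called (16.9% higher, 16.2% lower). It called 0 of 78 at 9 h, where 7.08% of all were called. At 9 h 3 members had an unadjusted p under 0.05, and DESeq2 called 2 members and limma voom 0. For 33 h against 9 h, 6 of 78 members were called at the low dose, 4 higher and 2 lower, against a background of 26.3% (13.6% higher, 12.7% lower). At the high dose 9 were called, 3 higher and 6 lower, against 45.6% (23.9% higher, 21.8% lower). Under scaling by library totals, which moved the median of all transcripts by 0.61 on the log2 scale in the high dose comparison of times, 10 members were called there, 5 higher and 5 lower. That fit takes the spread of a transcript from all 30 livers, including the 10 vehicle livers in which members were chosen for a wide spread, so the share called in that fit is not free of the choice. The contrasts were therefore also fitted on the 20 treated livers alone, a setting added after the data were seen, in which 71 members and 17952 transcripts were tested. There 5 members were called for high against low dose at 33 h (7.04%, where 32.2% of all were called) and 0 at 9 h (5.2% of all), with 7 members at an unadjusted p under 0.05 at 9 h. For 33 h against 9 h, 13 members were called at the high dose (18.3%, where 45.8% of all were called) and 8 at the low dose (11.3%, where 25% of all were called). The share called was thus lower among members in this fit too. Some of these calls were not made in the fit of 30 livers. They were ENSCPOT00000002005.3 for dose at 33 h, and it, ENSCPOT00000013291.3, ENSCPOT00000013474.3, ENSCPOT00000034022.1 and ENSCPOT00000045948.1 for time at the high dose. For time at the low dose they were ENSCPOT00000013291.3, ENSCPOT00000013474.3, ENSCPOT00000015582.3 and ENSCPOT00000025456.2. Values printed below for named members are from the fit of 30 livers. Of the 20 calls in the fit of 30 livers, 16 had a value in the fit of treated livers and all 16 passed there. The other 4, of ENSCPOT00000031089.1, ENSCPOT00000034413.1 and ENSCPOT00000012821.3, did not pass its filter on low counts. Of the 20 calls, limma voom with quality weights kept 4, both of ENSCPOT00000038245.1 and those of ENSCPOT00000034022.1 and ENSCPOT00000025456.2.

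At the median, members had larger fitted fold changes than all tested transcripts, but these were smaller than the members' own errors. The size of these fold changes thus does not by itself show a change. In the fit of treated livers alone the median absolute log2 fold change of the 71 was 0.91 for high against low dose at 33 h and 1.01 for 33 h against 9 h at the high dose, against 0.35 and 0.48 over all tested transcripts. Their errors were larger still, with a median standard error of 1.16 and 1.15, against 0.19 in both comparisons over all tested transcripts. A member with a p above the threshold is thus not shown to be the same in the groups compared.

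**Figure D3:**
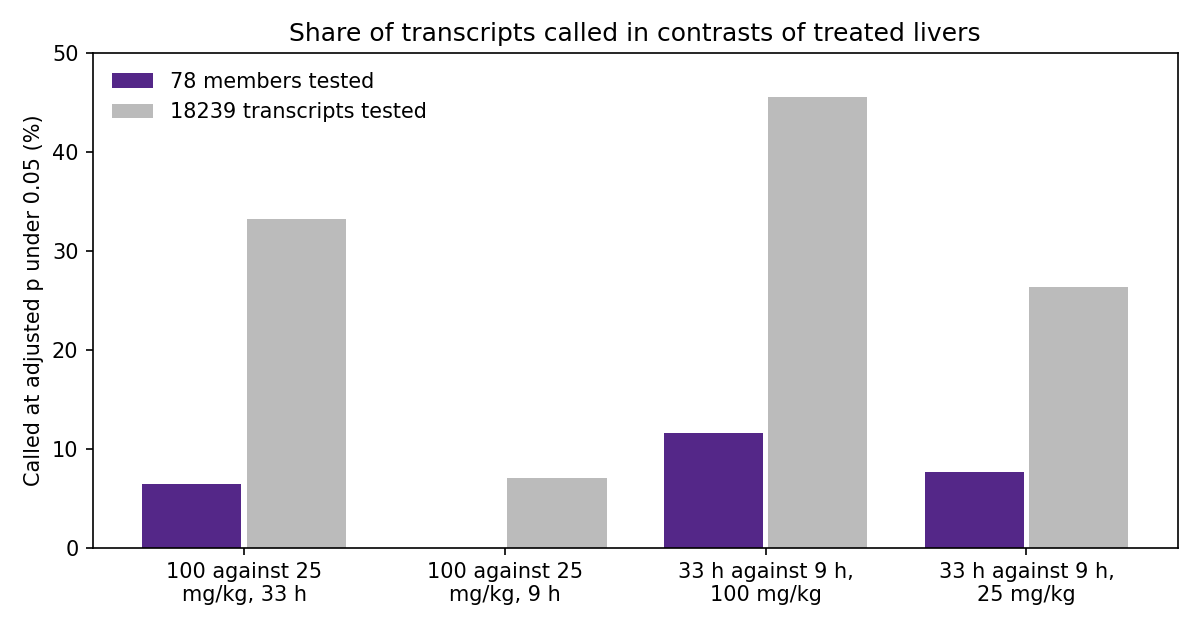
Percentage called at an adjusted p under 0.05 among the 78 members tested (purple) and among all 18239 transcripts tested (grey) in 4 contrasts of treated livers, from the fit of all 30 livers. The share called was lower among members in each, 11.5% against 45.6% in the highest pair of bars. That fit takes in the vehicle livers that chose the members, so the share is not free of the choice. In the fit of treated livers alone the same contrast gave 18.3% against 45.8%.

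ENSCPOT00000038245.1 (585 bases) rose with time at both doses. It was at 12.7, 22.8, 30.5, 44.2 and 28.1 TPM in low dose livers of 33 h, against 0 in all 5 low dose livers of 9 h. In high dose livers it was at 44.5, 33.5, 48.9, 25.5 and 16.4 TPM at 33 h, against 0, 1.23, 0, 0 and 8.09e-05 TPM at 9 h. The groups did not overlap at either dose. It was at least 66.5-fold higher at 33 h at the low dose, taking 3 counts per library as the floor of the 9 h livers (adjusted p = 0.000543, edgeR). At the high dose its log2 fold change was 6.45 (SE 1.48, adjusted p = 0.00097, edgeR). Without high dose liver 2 of 9 h, the liver at 1.23 TPM, it was 10.78 (adjusted p = 0.00114, edgeR), a size that is no bound since the remaining livers of 9 h rounded to 0 counts. High and low dose were not told apart at 33 h (log2 fold change 0.07, SE 1.05, adjusted p = 0.97, edgeR). Vehicle livers, which chose it as a member, were at 2.56, 6.57, 0, 0 and 0 TPM at 33 h and at 0, 0, 0, 7.94 and 5.65 TPM at 9 h.

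ENSCPOT00000046429.1 (1245 bases) fell in high dose livers of 33 h. These were at 2.26, 0.0149, 0.0159, 0.31 and 0.0318 TPM, against 11.6, 31.0, 10.5, 10.4 and 11.2 TPM in low dose livers of 33 h. Both groups of 9 h were on in every liver, at 16.5, 11.6, 9.51, 5.96 and 52.5 TPM at the high dose and 20.2, 49.9, 73.1, 7.48 and 32.0 TPM at the low dose. No high dose liver of 33 h reached the level of any other treated liver. The log2 fold change was -4.90 for high against low dose at 33 h (SE 1.18, adjusted p = 0.00218, edgeR) and -5.62 for 33 h against 9 h at the high dose (SE 1.20, adjusted p = 0.000346, edgeR). Without high dose liver 1 of 33 h, the liver at 2.26 TPM, these were -7.52 (adjusted p = 0.000734, edgeR) and -8.24 (adjusted p = 0.00013, edgeR), and without high dose liver 5 of 9 h the second was -4.87 (adjusted p = 0.00151, edgeR). At the low dose the difference of 33 h against 9 h, -1.54, did not pass (SE 0.92, adjusted p = 0.24, edgeR). In vehicle livers it was at 12.5, 5.39, 0.00943, 5.61 and 27.7 TPM at 33 h and at 3.47, 0.767, 8.25, 0.00871 and 17.7 TPM at 9 h.

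ENSCPOT00000000420.3 (1496 bases), which had one of the highest on levels in vehicle livers, fell with time at both doses. It was at 0 in all 5 low dose livers of 33 h, against 3.36, 3.80, 3.91, 0.813 and 0 TPM in those of 9 h. It was at 0, 0, 0, 0 and 0.165 TPM in high dose livers of 33 h, against 20.6, 15.7, 1.62, 2.74 and 3.68 TPM in those of 9 h. The high dose groups did not overlap, and at the low dose 1 liver of 9 h was also at 0. The low dose 33 h level was at least 25.7-fold lower, with 3 counts per library as the floor (adjusted p = 0.00709, edgeR), and the high dose log2 fold change was -8.41 (SE 1.68, adjusted p = 0.000244, edgeR). That size rested on high dose liver 5 of 33 h, the liver at 0.165 TPM, without which all remaining livers of 33 h were at 0 and the fitted value was -11.23 (adjusted p = 0.00134, edgeR). Vehicle livers of 33 h were all on, at 20.4, 28.7, 6.24, 14.5 and 29.0 TPM, while those of 9 h were at 22.0, 0, 22.1, 0 and 10.01 TPM.

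ENSCPOT00000005800.3 (3585 bases) rose with time at the high dose. High dose livers of 33 h were at 2.48, 4.57, 5.22, 3.41 and 1.14e-05 TPM, against at most 2.27e-05 TPM in those of 9 h. 1 liver of 33 h was thus in the same state as the 9 h livers. All 5 high dose livers of 9 h rounded to 0 counts, and 33 h was at least 50.8-fold higher over a floor of 3 counts per library (adjusted p = 0.00283, edgeR). Low dose livers were at 4.31e-06, 0.268, 5.24e-06, 1.33e-05 and 1.74 TPM at 33 h and at 1.70, 0.0496, 2.10, 0.00684 and 2.32e-10 TPM at 9 h, and this difference did not pass (log2 fold change -1.20, SE 1.38, adjusted p = 0.58, edgeR). Vehicle livers, which chose it as a member, were at 1.74 to 3.31 TPM at 33 h and at 3.24e-07 to 1.71 TPM at 9 h. No result is read from them.

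ENSCPOT00000031089.1, the longest member at 11416 bases, was called through 2 livers. Low dose livers of 33 h were at 3.96 and 2.04 TPM in 2 animals and at most 0.0218 TPM in the other 3. High dose livers of 33 h were at most 0.0156 TPM and low dose livers of 9 h at most 0.0282 TPM, so both pairs of groups overlapped. The log2 fold change was -8.38 for high against low dose at 33 h (SE 2.27, adjusted p = 0.00551, edgeR) and 7.56 for 33 h against 9 h at the low dose (SE 2.19, adjusted p = 0.0111, edgeR). Without low dose liver 3 of 33 h, the liver at 3.96 TPM, these were -7.00 (adjusted p = 0.0228, edgeR) and 6.17 (adjusted p = 0.0408, edgeR). The first was -9.85 without high dose liver 1 of 33 h (adjusted p = 0.0115, edgeR). The second was 11.23 without low dose liver 4 of 9 h (adjusted p = 0.0255, edgeR), where the remaining livers of 9 h rounded to 0 counts. The transcript did not pass the filter on low counts in the fit of treated livers alone. In vehicle livers it was at 4.56e-06 to 1.38 TPM at 33 h and at 1.66e-05 to 5.93 TPM at 9 h.

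**Figure D4:**
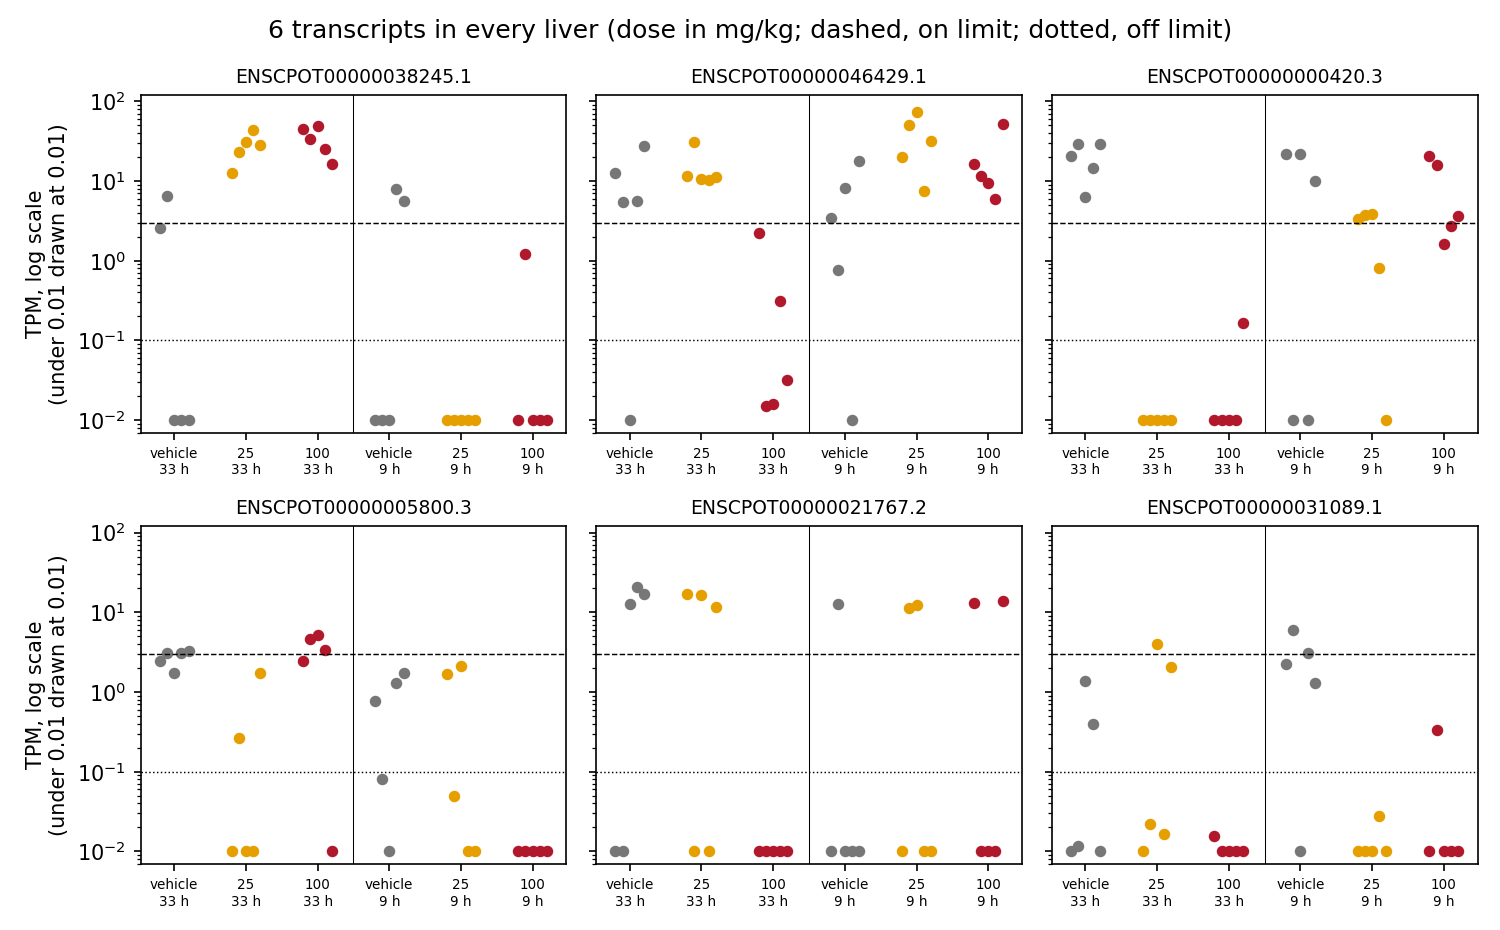
TPM of 6 members in every liver (points, log scale, values under 0.01 drawn at 0.01), with 33 h left of 9 h in each panel. ENSCPOT00000038245.1 was above 12 TPM in all 10 treated livers of 33 h, ENSCPOT00000046429.1 was under the on limit in high dose livers of 33 h alone among the treated groups, and ENSCPOT00000021767.2 was either at 0 or above 11 TPM in each liver.

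ENSCPOT00000021767.2 and ENSCPOT00000024803.2, both 1586 bases long, had equal values in all 30 libraries and count as 1 measurement. Each was at 16.9, 0, 16.5, 0 and 11.8 TPM in low dose livers of 33 h and at 0 in all 5 high dose livers of 33 h. High dose livers of 9 h were at 13.1, 0, 0, 0 and 13.8 TPM and low dose livers of 9 h at 0, 11.3, 12.2, 0 and 0 TPM. Over the 30 livers the pair was on in 11 and at exactly 0 in 19, with nothing between. At 33 h the high dose was at least 115-fold lower than the low dose (adjusted p = 0.0326, edgeR), and at the high dose 33 h was at least 81.9-fold lower than 9 h (adjusted p = 0.0322, edgeR), both over the floor of 3 counts per library. Both comparisons had livers at 0 on both sides, so the groups overlapped. Either call was lost in 7 of 10 fits that left out 1 animal, with adjusted p of 0.0253 to 0.0622 and of 0.0289 to 0.0589 (edgeR). Those animals were all 5 high dose livers of 33 h in both comparisons, with low dose livers 1 and 3 of 33 h in the first and high dose livers 1 and 5 of 9 h in the second. The second bound fell to 50.6-fold without high dose liver 1 of 9 h and to 51.7-fold without liver 5.

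The other calls were on fewer counts or fewer livers. ENSCPOT00000015133.3 (1072 bases) was at 4.34, 5.86, 1.41, 2.54e-08 and 2.39 TPM in low dose livers of 33 h, and high dose livers of 33 h were at 0.0242, 0, 0, 0.0523 and 0 TPM. High dose livers of 9 h were at 10.02, 1.46, 0, 0 and 2.08 TPM. The high dose livers of 33 h held 2 counts in all, which made it 158-fold lower than the low dose (95% counting interval 43.2 to 1308) and 194-fold lower than at 9 h (53.3 to 1614), with adjusted p of 0.0294 and 0.0165 (edgeR). The first call was lost without low dose liver 2 or any single high dose liver (adjusted p 0.0211 to 0.0657 over 10 fits, edgeR) and the second without high dose liver 1 of 9 h (0.0134 to 0.0637). Without high dose liver 1 or 4 of 33 h the first ratio was 248 or 253 and the second 306 or 312, and without high dose liver 1 of 9 h the second was 62.5.

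ENSCPOT00000032276.1 (381 bases) was on in 4 of 5 low dose livers of 33 h, at 20.6, 6.78, 7.04 and 18.6 TPM, against 0 in all 5 of 9 h, at least 12.9-fold higher (adjusted p = 0.0484, edgeR). ENSCPOT00000034413.1 (276 bases) was at 0, 0, 7.56, 10.4 and 1.93 TPM in low dose livers of 33 h, against 0 in all 5 of 9 h, at least 2.79-fold higher (adjusted p = 0.0441, edgeR). The first call was lost in 9 of 10 fits without 1 animal, all but the fit without low dose liver 2 of 33 h (adjusted p 0.0468 to 0.0847, edgeR). The second was lost in 7 of 10, without any low dose liver of 9 h or without low dose liver 3 or 4 of 33 h (0.0381 to 0.0826). DESeq2 and a fit with no filter on low counts also lost both calls. ENSCPOT00000012821.3 (1704 bases) was at 7.79 and 0.633 TPM in 2 high dose livers of 33 h and at most 2.49e-07 TPM in the other 3. Its 9 h livers at the high dose rounded to 0 counts, and 33 h was at least 12.0-fold higher (adjusted p = 0.0417, edgeR). That call was lost without any high dose liver of 9 h and without high dose liver 3 of 33 h, with adjusted p of 0.0332 to 0.245 over 10 fits (edgeR), and with no filter on low counts. The bound was 1.15-fold without high dose liver 3 of 33 h. In vehicle livers ENSCPOT00000012821.3 was at up to 13.9 TPM at 33 h and at most 0.0702 TPM at 9 h.

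A pair of short members fell without being off in any liver of the groups compared. ENSCPOT00000034022.1 (300 bases) was at 2.83, 4.46, 2.36, 3.92 and 2.50 TPM in low dose livers of 33 h, against 7.57, 7.63, 21.3, 18.6 and 9.27 TPM in those of 9 h. All 5 livers of 9 h were on, and 2 of 5 at 33 h. The groups did not overlap and the log2 fold change was -2.24 (SE 0.71, adjusted p = 0.0205, edgeR). Without low dose liver 3 or 4 of 9 h the adjusted p was 0.0602 or 0.0518, over a range of 0.0191 to 0.0602 in 10 fits. Vehicle livers, which chose it as a member, were at 0.835 to 3.12 TPM at 33 h and at 0 to 4.12 TPM at 9 h. No result is read from these vehicle values. ENSCPOT00000025456.2 (477 bases), which fell outside the rule for named members and was chosen after its values were seen, was at 3.70 to 9.02 TPM in high dose livers of 33 h, against 13.4 to 36.6 TPM in those of 9 h. Its log2 fold change was -2.38 (SE 0.91, adjusted p = 0.0338, edgeR). The adjusted p was 0.0390 to 0.0844 over 10 fits without 1 animal, and the call was lost without high dose liver 1 of 9 h or high dose liver 2, 4 or 5 of 33 h, and under scaling by library totals. Vehicle livers, which chose it as a member, were at 0 to 3.77 TPM at 33 h and at 0 to 6.02 TPM at 9 h. No result is read from them.

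The difference between high and low dose changed with time in 5 of the 78 members tested, against 25.6% of all tested transcripts (adjusted p under 0.05, edgeR). They were ENSCPOT00000046429.1, ENSCPOT00000031089.1, ENSCPOT00000005800.3, ENSCPOT00000015133.3 and ENSCPOT00000032276.1. In the fit of treated livers alone 6 of 71 members were called, against 24% of all, among them each of these but ENSCPOT00000031089.1, which was not tested there. The others called there were ENSCPOT00000002005.3 and ENSCPOT00000015582.3. Of the 20 member calls in the 4 contrasts of treated livers, 7 came from groups that did not overlap. Over all 100 members 4 did not overlap between high and low dose at 33 h, 0 at 9 h, 8 between 33 h and 9 h in high dose livers and 5 in low dose livers. The shares of all listed transcripts were 11.4%, 7.63%, 35% and 14.9%.

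Against vehicle livers, whose values chose the members, counts are given without reading. At 33 h 10 members were called in high dose livers (background 50.7%) and 4 in low dose livers (25.7%), and at 9 h 5 in high dose livers (26.3%) and 3 in low dose livers (24.7%).

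The members were short and variable. Their median length was 522 bases, from 66 to 11416, against 2079 bases over all listed transcripts. Under 300 bases were 27% of members and 1.85% of all listed transcripts, while 36 members were 1000 bases or longer. The spread between livers of the same treated group was measured as the biological coefficient of variation in a fit of the 20 treated livers alone. Its median was 1.24 over the 71 members in that fit, from 0.311 to 3.61, and 0.206 over the other transcripts, and 59 of the 71 members were in the highest 10%. Among transcripts of similar abundance it was 1.30 for 35 members and 0.340 for 4492 others.

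Estimated counts of members were seldom whole numbers. A read that matches 1 transcript alone adds 1 whole count, and a divided read adds a part of one, so an estimate that is not whole holds divided reads, while a whole one does not show that none were divided. Among on values in all livers, 107 of 1127 member values (9.49%) were whole within 1e-06, against 52.1% of those of other transcripts. In treated livers alone the shares were 8.66% and 51.6%. The gap was present among members under 1000 bases (11.0% against 58.6%) and among longer ones (6.86% against 50.9%). Between 3 and 30 TPM it was 9.50% against 49.1%. For 85 members no on value was whole, for 7 every one was and for 8 some were. Most member values on thus held divided reads, but how far the division itself set the on and off states was not tested.

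**Figure D5:**
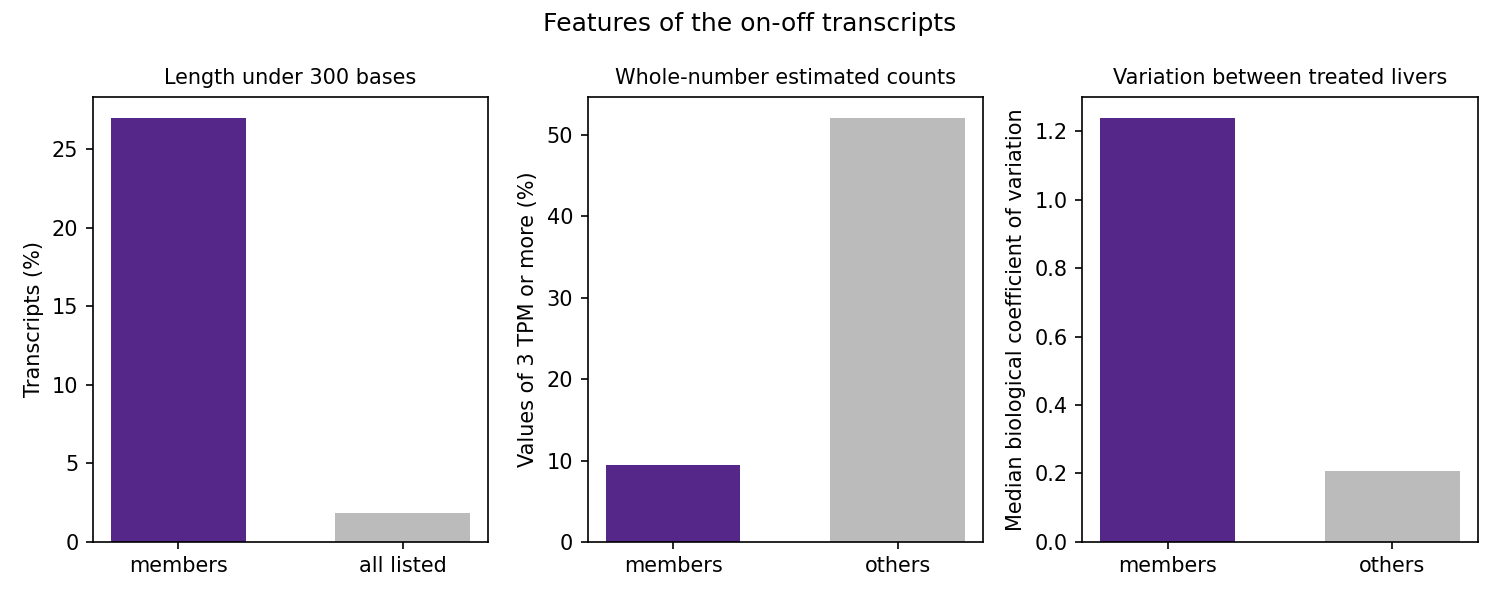
Members (purple) beside other or all listed transcripts (grey): percentage under 300 bases long, percentage of on values that are whole estimated counts, and median biological coefficient of variation between treated livers. The members were shorter (27% against 1.85%), less often whole (9.49% against 52.1%) and more variable (1.24 against 0.206).

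Few members had a listed partner that moved against them. Apart from the equal pair ENSCPOT00000021767.2 and ENSCPOT00000024803.2, whose on values were not whole even when summed over both, no other member shared all its values with another transcript, of 20 such sets and 42 transcripts in the tables. A transcript listed within 3 rows of a member and moving against it was then looked for, a search chosen after the data were seen. Over the 30 livers, centred within groups, such a neighbour needed a correlation under -0.5 and a slope between -2 and -0.5 TPM per TPM. It was found for 8 of 99 members (8.08%) and for 290 of 14680 other transcripts (1.98%). The 30 livers include the vehicle livers, in which members were chosen for a wide spread, and the other transcripts were not matched for spread. How far that choice set the gap between these shares was not tested, and no result is read from it. No member had a partner that was off in every liver where the member was on and on in every liver where it was off. With the roles turned, a search named after its values were seen, the member ENSCPOT00000000420.3 was such a partner of 2 transcripts that were not members. ENSCPOT00000047451.1 (279 bases) was on in 6 livers, where ENSCPOT00000000420.3 was off, and off in 5, where it was on. ENSCPOT00000014786.3 (354 bases) was on in 4 livers, where ENSCPOT00000000420.3 was off, and off in 4, where it was on. In the livers where they were between the limits ENSCPOT00000000420.3 was on in some and off in others, and the summed TPM varied by 95.8% and 110% between livers (coefficients of variation). ENSCPOT00000024346.2 (1038 bases) and ENSCPOT00000012866.3 (1062 bases) had a slope of -1.09 and r = -0.71 over 30 livers, and varied by 95.7% and 17.5% while their sum varied by 11.1% (coefficients of variation). ENSCPOT00000015296.3 (1778 bases) and ENSCPOT00000040871.1 (1784 bases) varied by 104% and 80.0%, and their sum by 36.6%. These are descriptions of levels in the same libraries, and the tables do not say whether such neighbours come from 1 gene.

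Likeness between levels was described over all livers. Each member's level, as log2(TPM + 0.1) over 30 livers, was correlated with that of 14058 transcripts with a mean of at least 1 TPM. The highest correlation of a member was 0.46 to 1 with a median of 0.67, and for 12 of 100 members (12%) the most similar transcript was another member. Members made up 93 of the 14058 candidates (0.662%). The value of 1 belonged to the equal pair, both of which are among the 12 members, and 4 members reached 0.9. ENSCPOT00000038245.1 was most like ENSCPOT00000039995.1 (r = 0.91) and ENSCPOT00000000420.3 most like ENSCPOT00000001775.3 (r = 0.89). The 30 points share 6 groups, so dose and time enter these values. They also take in the vehicle livers in which members were chosen for both states. How far that choice set the 12% was not tested, and no result is read from it.

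The edges of the rule were not gaps. The second-lowest vehicle value was 0.0993 TPM in ENSCPOT00000022507.2 and 0.0834 TPM in ENSCPOT00000015582.3, which were members, and 0.106 TPM in ENSCPOT00000047190.1 and 0.117 TPM in ENSCPOT00000037155.1, which were not. The second-highest was 3.02 TPM in the members ENSCPOT00000040482.1 and ENSCPOT00000006934.3, and 2.98 and 2.97 TPM in ENSCPOT00000044678.1 and ENSCPOT00000037286.1, which were not. ENSCPOT00000015582.3 (6261 bases) had whole counts in every liver and 11 to 13 counts in its off livers, so its off state was a low level and not an absence.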

How the data were processed

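Poly-A enriched, stranded libraries of liver RNA were sequenced as paired reads, per the labels' protocols. Quantification was by kallisto 0.42.4, per the submitters' processing notes, with a transcript set not given in the sources used here. The authors' deposited estimated counts are unscaled and can be fractional. The TPM values deposited by the authors are per transcript, scaled for length and depth. Dose and duration labels set the groups.

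Members were found from TPM by the rule given above. Members, lists and comparisons were chosen with earlier results of these data known. Gene lists and cell type markers planned for gene names were not applied, since 0 identifiers matched the table of 37416 genes. For testing, the estimated counts were rounded and fitted with edgeR 4.0.16 in R 4.3.3 (filterByExpr with minimum count 10, TMM scaling, 1 robust quasi-likelihood model of 30 animals, 24 residual degrees of freedom, Benjamini-Hochberg adjustment over 18239 transcripts). The fit was also run on simulated counts, drawn around each transcript's mean in vehicle livers and with no divided reads. That run does not show how well the fit handles the on-off values of members. Bounds used CPM of TMM-scaled libraries with 3 counts per library as the floor. Counting intervals are exact at 95% and cover counting error only. The spread in that model comes from all 30 animals, vehicle animals included, so the contrasts were also fitted on the 20 treated animals alone. Alternatives included DESeq2 1.42.0 and limma voom 3.58.1, other scalings, filters and limits, and leaving out each animal.

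Named members were the 6 with the highest on level, up to 6 with no vehicle liver between the limits, up to 5 called each way per contrast of treated livers with a mean of at least 1 TPM in the higher group, up to 4 pairs of opposite states (no member had a partner opposite in every liver where the member was on or off), those on or off in all treated livers, and 2 on each side of each limit. Python 3.11.15 and matplotlib 3.10.9 were used for states and figures.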

Additional observations from a re-analysis of the deposited data

Results flagged for a closer look

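Among 150 groups of 5 livers examined (6 groups for each of 22 named members and for 3 totals per liver), 25 held 1 liver apart from the other 4 by Dixon's test. For named members the test used a log scale with TPM under 0.1 set to 0.1, and for the totals it used the values without a log. Chance alone flags about 1 in 20 groups, and on-off values make such gaps readily. The totals per liver gave none. Livers are named by group and animal number.

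In high dose livers of 33 h, 1 liver stood apart for ENSCPOT00000032276.1 (11.8 TPM in animal 1, 0 in the others), ENSCPOT00000040781.1 (18.5 TPM in animal 1, 0 in the others), ENSCPOT00000000420.3 (0.165 TPM in animal 5, 0 in the others) and ENSCPOT00000005800.3 (1.14e-05 TPM in animal 5, 2.48 to 5.22 TPM in the others). In high dose livers of 9 h these were ENSCPOT00000011763.3 (27.2 TPM in animal 2, 0 in the others), ENSCPOT00000031089.1 (0.335 TPM in animal 2, at most 0.00772 TPM in the others), ENSCPOT00000038245.1 (1.23 TPM in animal 2, at most 8.09e-05 TPM in the others), ENSCPOT00000009221.2 (0 in animal 5, 11.4 to 30.2 TPM in the others), ENSCPOT00000034413.1 (3.51 TPM in animal 1, 0 in the others) and ENSCPOT00000040482.1 (0.709 TPM in animal 1, at most 0.00074 TPM in the others).

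In low dose livers of 33 h, animal 2 stood apart for ENSCPOT00000032276.1 (0, against 6.78 to 20.6 TPM), ENSCPOT00000022507.2 (0, against 5.37 to 8.20 TPM) and ENSCPOT00000046429.1 (31.0 TPM, against 10.4 to 11.6 TPM). Animal 4 stood apart for ENSCPOT00000041233.1 (8.19 TPM, 0 in the others) and animal 3 for ENSCPOT00000040482.1 (4.08 TPM, at most 0.239 TPM in the others). In low dose livers of 9 h, animal 4 stood apart for ENSCPOT00000011763.3 (16.5 TPM, at most 6.52e-07 TPM in the others) and ENSCPOT00000040781.1 (8.78 TPM, at most 0.215 TPM in the others). Animal 5 did so for ENSCPOT00000009221.2 (34.8 TPM, 0 in the others) and ENSCPOT00000041233.1 (0, against 3.15 to 5.68 TPM), and animal 1 for ENSCPOT00000015133.3 (2.45 TPM, at most 0.0874 TPM in the others).

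In vehicle livers the split is what chose the members. There, 1 liver stood apart at 33 h for ENSCPOT00000015133.3 (4.40 TPM). At 9 h this held for ENSCPOT00000021767.2 and its equal ENSCPOT00000024803.2 (12.9 TPM in animal 2), ENSCPOT00000040781.1 (0 in animal 4, against 5.31 to 14.9 TPM) and ENSCPOT00000040482.1 (0.113 TPM in animal 1).

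The log2 difference between high and low dose, at 33 h less that at 9 h, passed edgeR's interaction test in 5 members. It was -4.08 in ENSCPOT00000046429.1 (SE 1.47, adjusted p = 0.0414, edgeR), -12.10 in ENSCPOT00000031089.1 (SE 3.32, adjusted p = 0.00822, edgeR) and 11.69 in ENSCPOT00000005800.3 (SE 3.17, adjusted p = 0.00886, edgeR). It was -9.43 in ENSCPOT00000015133.3 (SE 2.99, adjusted p = 0.0207, edgeR) and -10.30 in ENSCPOT00000032276.1 (SE 3.65, adjusted p = 0.0406, edgeR). In all but ENSCPOT00000046429.1 at least 1 of the 4 groups had 5 or fewer counts in all, so the size of the fitted difference depends on the prior count of the fit and is no bound.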

How the results depend on the processing

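No paired analysis was possible because the replicate numbers were given in accession order and only name the animals. The number of members was 499 with an on limit of 1 TPM, 47 with 5 TPM, 44 with at least 3 livers in each state, 26 from the 33 h and 30 from the 9 h vehicle livers alone, and 81 to 96 without 1 animal. Members with both states in treated livers fell to 39 in the high dose livers alone, and were 67 to 71 without 1 animal. On CPM per kilobase the percentage of member values on was 28.8 at the high dose, 33 h and 36.2 at the low dose, 33 h. With members by 3 livers in each state, the calls were 3 for high against low dose at 33 h, 2 (low dose) and 5 (high dose) for 33 h against 9 h. For high against low dose at 33 h voom called 1, and the fits without 1 animal called 2 to 7 (2 without high dose liver 1, 2, 3 or 4, 3 without high dose liver 5 or low dose liver 1). For high against low dose at 9 h library totals called 1 and DESeq2 2, and fits without 1 animal 0 to 2 (1 without low dose liver 4, 2 without liver 5). For 33 h against 9 h the range without 1 animal was 3 to 6 (low dose, with 3 without liver 4 of 9 h) and 6 to 9 (high dose). The cause of these changes was not tested. No member call changed direction. Of 20 calls, 9 passed in every fit without 1 animal, DESeq2 kept 18, the fit of treated livers alone kept all 16 it tested and voom with quality weights kept 4. The only calls that passed in every setting were both of ENSCPOT00000038245.1. The on state rested on the fewest counts in the 23 members whose median on count was under 10. Without them, a choice made after seeing the data, 5 members were called for high against low dose at 33 h.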
